A study of Mus musculus with 6 samples.

Results

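The cytokine genes described here were 10 genes whose products B cells are known to make: *Il10*, *Il6*, *Tnf*, *Lta*, *Ltb*, *Ebi3*, *Il12a*, *Csf2*, *Tnfsf13b* and *Tnfsf13*. They were chosen by name from knowledge of their products, with no rule on their values but with earlier results of these data known. All 10 were found among the 46983 genes listed. Of these genes, 13312 had a mean of at least 0.5 FPKM (a read count scaled by gene length and by the depth of the library) over the 6 libraries and were tested, and 8 of the 10 cytokine genes were among them. *Csf2* and *Tnfsf13* stayed below that level and are given by their values only.

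B cells do not only make antibodies. IL-10 and IL-35, the dimer of EBI3 and the IL-12 p35 chain encoded by *Il12a*, restrain inflammation, whereas IL-6, TNF and GM-CSF (encoded by *Csf2*) promote it. Lymphotoxin α and lymphotoxin β (*Lta* and *Ltb*) shape lymphoid tissue, and BAFF and APRIL (*Tnfsf13b* and *Tnfsf13*) support the survival of B cells and plasma cells and their switching to IgA.

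Splenic B cells were cultured for IgA class switching and profiled by bulk RNA-seq, with 3 libraries from WT and 3 from *Hif1a* KO mice. All cells received LPS (5 μg/ml), which activates B cells, together with TGF-β, IL-5 and BAFF (10 ng/ml of each), and were collected on day 3 (72 h). BAFF protein was thus supplied by the medium in both genotypes. The comparison asks how loss of HIF-1α, a transcription factor stabilised in hypoxia, changes the transcripts of these cells. KO mice carried *Hif1a* f/f with cre driven by *Mb1* (*Cd79a*), which is active in the B lineage from early stages on. WT mice were littermates, either *Hif1a* f/+ with cre or *Hif1a* f/f without cre, but these controls cannot be assigned to single libraries from the labels, which also give no age. The mice had a C57BL/6 background, and per the methods the cultured cells were CD21int CD23+ follicular B cells sorted from spleen. Since nothing says that the libraries of a genotype came from separate animals, p-values measure the spread between these libraries.

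The libraries held 25.0 to 37.2 M counted reads. WT replicates 2 and 3 (WT2 and WT3) stood apart from the other 4. On the first principal component, which held 54.7% of the variance, they lay at -26.2 and -25.9, whereas WT1 (15.7) lay among the KO libraries (7.1 to 19.5). All 8 B-cell markers were tested and 0 called, with *Pax5* between 428.0 and 606.7 FPKM, and 4 of the 8 had WT2 and WT3 as the lowest libraries. Without WT1, *Cd79b* (0.65 log2 units, limma adjusted p = 0.0188) and *Ebf1* (0.33, limma adjusted p = 0.0438) were called higher in KO. They were 2 of the 8, beside 3.64% of all genes tested called higher and 5.75% lower without WT1. The same shares stand beside the other marker calls without WT1 below. The sum of 12 macrophage and monocyte markers was 80.0, 181.8 and 128.0 FPKM in WT1, WT2 and WT3 and 74.0 to 84.3 in the KO libraries, and *Adgre1* was its largest member. Of these markers 6 were tested and 0 called, and 5 of the 6 had WT2 and WT3 as the highest libraries. The exception, *Mrc1*, had a higher mean in KO (0.991) than in WT (0.898), as did the untested *Itgam* (0.192 and 0.166). The 6 plasma cell markers summed to 618.3, 337.1 and 306.5 in WT and 426.9 to 788.4 in KO, and *Xbp1* was the largest member. Of these markers 5 were tested and 0 called, with 4 higher and 1 lower in KO. The lower 1 was the defining marker *Sdc1* (mean 3.89 in WT and 3.45 in KO), and *Tnfrsf17* was at most 0.179 throughout. *Jchain* was at 181.7, 90.5 and 84.0 in WT and 141.9 to 220.3 in KO. Without WT1, *Jchain* was called higher in KO (1.0, limma adjusted p = 0.0255). *Lyz2* was at 6.18, 58.3 and 26.2 in WT and 0.6 to 3.7 in KO, and the defining marker *Csf1r* at 0.176, 0.754 and 0.521 in WT and at most 0.172 in KO. The summed neutrophil markers reached 34.5 in WT1 and at most 0.528 elsewhere, and the T-cell gene *Cd3e* at most 0.134 throughout. *Lck* was at 131.3, 96.2 and 90.1 in WT and 133.4 to 136.9 in KO, with all KO libraries above WT, and was called higher in KO without WT1 (0.54, limma adjusted p = 0.00675). The other 8 T-cell markers summed to 3.85 to 4.83 per library, and of these *Cd3g* was also higher in every KO library (0.404 to 0.902) than in WT (0.0561 to 0.373). All the rest of the T-cell list had lower means in KO than in WT. Examples are *Cd5* (2.98 in WT and 2.58 in KO), *Trac* (0.508 and 0.442) and *Cd4* (0.215 and 0.0454). *Siglech* of dendritic cells (2.77 to 5.36 in WT and 1.86 to 2.5 in KO) and *Il7r* of innate lymphoid cells (0.792 to 1.37 and 0.318 to 0.66) were below WT in every KO library. Of all genes tested, 6.03% had every KO library below WT and 4.06% had every KO library above it. All 4 tested dendritic cell markers had lower means in KO, and 0 were called. Among them *Zbtb46* was at 0.914, 2.25 and 2.06 in WT and 0.939 to 0.99 in KO, with WT1 lowest. Without WT1 it was called lower in KO (-0.68, limma adjusted p = 0.019). The 7 listed dendritic cell markers summed to 16.2 to 17.9 in WT and 12.1 to 13.0 in KO. The untested *Xcr1* of this list had a mean of 0.49 in WT and 0.507 in KO. The part of these cell types in the cytokine values was not tested. Fewer cells of a type and less RNA per cell cannot be told apart in bulk samples. *Hif1a* itself was at 36.5, 49.8 and 45.8 FPKM in WT and 46.5, 45.6 and 52.8 in KO. This FPKM covers all exons and does not check the deletion.

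None of the cytokine genes differed between the genotypes at an adjusted p under 0.05. With limma on log2(FPKM + 1), 0 of 8 tested cytokine genes passed, where 0 of all 13312 genes (0%) did, and voom on recovered reads also called 0. At an unadjusted p under 0.05, *Il6* was lower and *Il12a* higher in KO, beside 4.50% and 2.48% of all genes tested in these directions (6.98% in either). Of the 8 genes, 6 had lower and 2 higher means on this scale in KO, and their median difference (KO minus WT) was -0.27 log2 units, against -0.028 over all genes tested. The WT and KO libraries did not overlap for 1 of the 8, *Il12a*, whereas 10.1% of all genes tested showed no overlap.

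**Figure D1:**
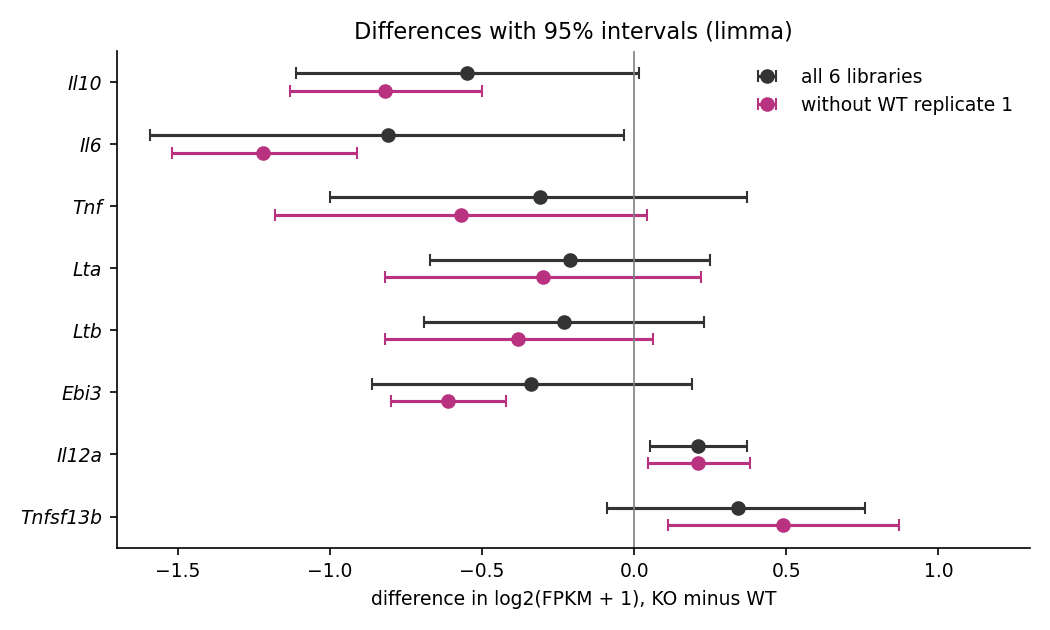
Difference in log2(FPKM + 1) between KO and WT (x axis, KO minus WT, with 95% confidence intervals from limma) for the 8 tested cytokine genes, over all 6 libraries and without WT1. With all 6 libraries, *Il6* (-0.81) lies farthest below 0 and *Tnfsf13b* (0.34) farthest above it. Without WT1, *Il6*, *Il10* and *Ebi3* pass the adjusted threshold.

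The outcome depended on WT1. Without this library, which leaves 2 WT libraries, 3 of the 8 cytokine genes were called lower in KO (*Il6*, *Il10* and *Ebi3*) and 0 higher, beside 1251 of 13312 genes (9.40%), of which 766 (5.75%) were lower and 485 (3.64%) higher in KO. Of the 6 tested macrophage markers, *Lyz2*, *Ms4a7* and *C1qa* were then called lower in KO as well, but *C1qa* (mean 1.47 FPKM in WT and 0.133 in KO) was tested only because of its WT libraries. The median difference of the 8 genes was then -0.47, against -0.05 over all genes tested. WT2 and WT3 were the 2 highest of the 6 libraries for 4 of the 8 genes, *Il10*, *Il6*, *Tnf* and *Ebi3*, and 30.5% of all genes tested had this order. They were the 2 lowest for *Il12a* and *Tnfsf13b*, an order found for 17.0% of all genes tested. The macrophage marker sum was also highest in WT2 and WT3. Cells of that type can make several of these cytokines, and their part in these values was not tested.

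**Figure D2:**
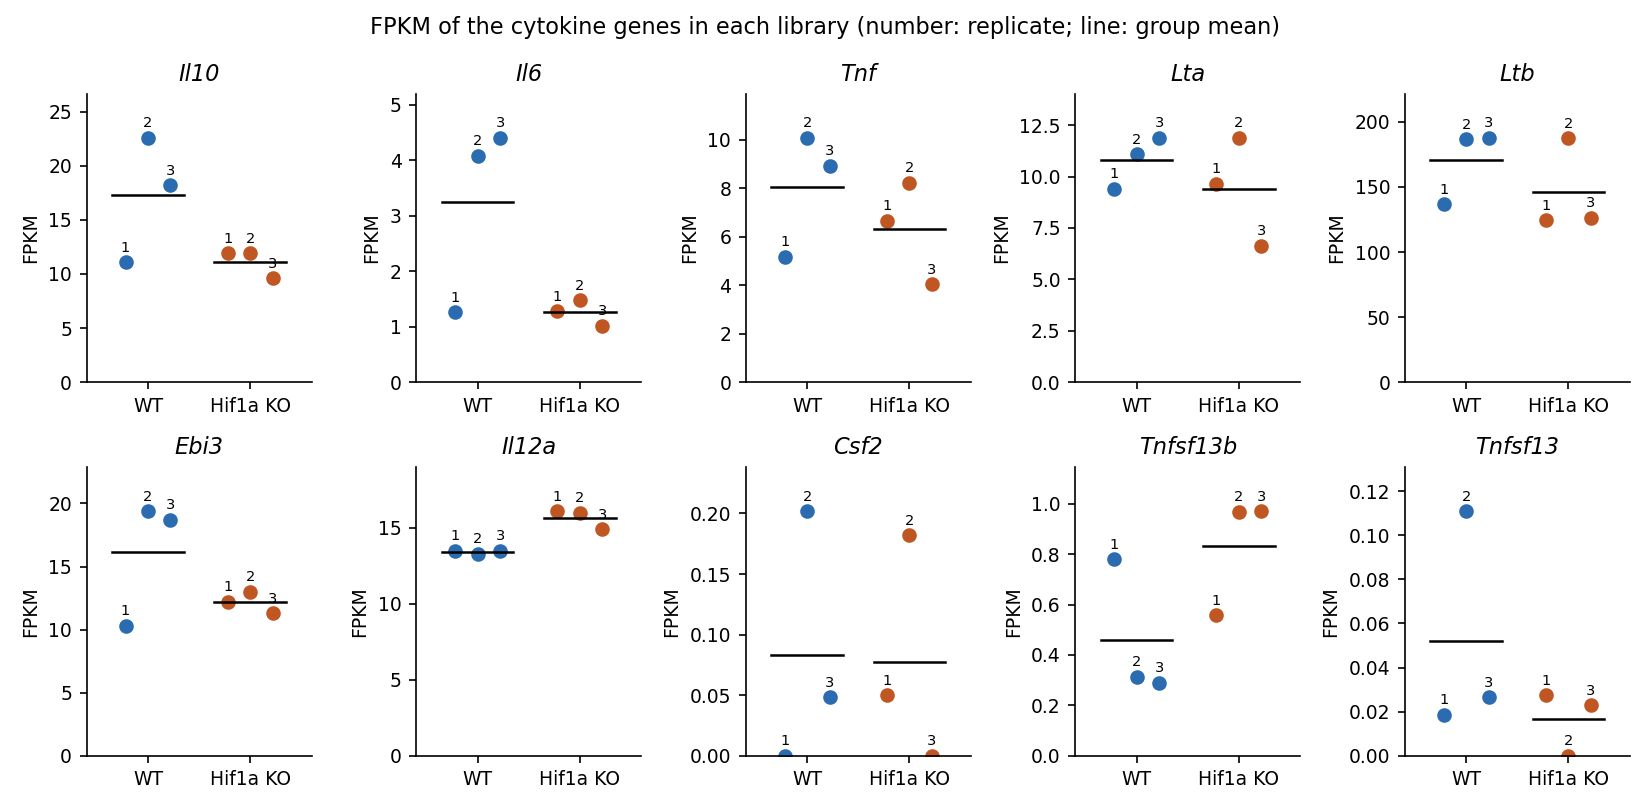
FPKM of the 10 cytokine genes in each library (points, WT1 to WT3 and KO1 to KO3) with the mean of each genotype (lines). WT2 and WT3 lie above the other 4 libraries for *Il10*, *Il6*, *Tnf* and *Ebi3*, and the KO libraries lie above the WT libraries for *Il12a*.

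*Il10* (ENSMUSG00000016529) encodes the main anti-inflammatory cytokine of regulatory B cells and lies on mm10 chr1:131019845-131024974 (+ strand). It was at 11.1, 22.6 and 18.2 FPKM in WT1, WT2 and WT3 and at 11.9, 11.9 and 9.63 in KO1, KO2 and KO3, from 377 to 917 reads per library. WT2 and WT3 exceeded every KO library, and WT1 lay within the KO range. The genotype means were 17.3 ± 5.8 and 11.1 ± 1.3 (SD, n = 3 each). The limma difference was -0.55 log2 units (SE 0.24, 95% interval -1.11 to 0.015, adjusted p = 0.626). Without WT1 it was -0.82 (SE 0.13, limma adjusted p = 0.0202), and without WT2 it was -0.34.

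*Il6* (ENSMUSG00000025746, chr5:30013114-30019981, + strand) encodes the inflammatory cytokine IL-6, which also drives antibody responses. Its level was 1.26, 4.08 and 4.41 FPKM in WT and 1.28, 1.48 and 1.02 in KO, from 39 to 161 reads per library. WT1 again lay within the KO range, and the highest library exceeded the lowest by 4.31-fold, more than for the other 7 tested cytokine genes. The means were 3.25 ± 1.73 in WT and 1.26 ± 0.231 in KO (SD, n = 3 each). The difference was -0.81 log2 units (SE 0.33, 95% interval -1.59 to -0.033, limma adjusted p = 0.626) and -1.22 without WT1 (SE 0.12, limma adjusted p = 0.00641).

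*Ebi3* (ENSMUSG00000003206, chr17:55952640-55957022, + strand) encodes the subunit that IL-27 and IL-35 share. It overlaps *Gm16712*, so reads of both could be mixed if the counting ignored strand. WT1, WT2 and WT3 held 10.3, 19.4 and 18.7 FPKM and the KO libraries 12.2, 13.0 and 11.3. WT1 was the lowest of all 6 libraries and WT2 and WT3 the highest. The difference was -0.34 log2 units (SE 0.22, 95% interval -0.86 to 0.19, limma adjusted p = 0.652) and -0.61 without WT1 (SE 0.079, 95% interval -0.8 to -0.42, limma adjusted p = 0.0118). Without WT2 or WT3 it was -0.18 or -0.21.

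The promoter windows of *Il6* and *Ebi3* are shown because both genes passed without WT1 and both hold a match to the NF-kB consensus, the letters to which this factor of LPS signalling is known to bind. They are the 250 bases before a RefSeq gene start (GRCm38.p6, the mm10 sequence) on the strand of the gene, with motif matches in capitals. The window of *Ltb* follows because it holds the only other NF-kB match among the cytokine genes. It is cut to 182 bases because its GENCODE start lies 68 bases before the RefSeq start.
*Il6*, chr5:30012864-30013113 (+ strand): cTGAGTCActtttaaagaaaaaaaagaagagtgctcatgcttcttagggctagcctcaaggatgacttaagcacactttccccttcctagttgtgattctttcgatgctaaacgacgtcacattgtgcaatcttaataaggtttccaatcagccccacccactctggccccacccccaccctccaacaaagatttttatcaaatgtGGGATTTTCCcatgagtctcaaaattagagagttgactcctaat
*Ebi3*, chr17:55952373-55952622 (+ strand): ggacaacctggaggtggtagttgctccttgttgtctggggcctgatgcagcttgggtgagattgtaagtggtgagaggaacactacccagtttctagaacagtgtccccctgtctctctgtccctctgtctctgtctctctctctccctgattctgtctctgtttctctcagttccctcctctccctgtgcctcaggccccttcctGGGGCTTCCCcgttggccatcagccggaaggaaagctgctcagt
*Ltb*, chr17:35194257-35194438 (+ strand): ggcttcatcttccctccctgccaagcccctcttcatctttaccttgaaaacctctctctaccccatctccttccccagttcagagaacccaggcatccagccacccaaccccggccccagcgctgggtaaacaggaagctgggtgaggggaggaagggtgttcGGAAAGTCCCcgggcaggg

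Windows, 11 in all, were found for 9 of the 10 cytokine genes, all but *Il10*, and were searched on both strands. A gene counted as matched if any of its windows matched, whereas the shares below are of single windows. The NF-kB consensus matched in 3 of these 9 genes and in 7.25% of the 32851 windows of the RefSeq table. Its match begins 44 bases before the start in both *Il6* and *Ebi3*. The AP-1 motif TGANTCA was present in *Il6*, in *Tnfsf13b* at a second start, in *Tnfsf13*, and in 6.75% of all windows. Of the hypoxia response cores, to which HIF-1α is known to bind, ACGTG was found in 0 of the 9 genes (16.6% of all windows). GCGTG was found in *Il12a*, at a second start, and in *Tnfsf13* (28.2% of all windows). The GENCODE start of *Tnfsf13* lies 230 bases before its RefSeq start. Its matches, and those at the second starts of *Il12a* and *Tnfsf13b*, therefore lie inside the GENCODE genes and not before them. The CRE motif TGACGTCA was in 0 of the 9 (1.55% of all windows). None of these motifs contains another. A match is a description of letters, and its absence says only that the letters are not in this window.

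*Il12a* (ENSMUSG00000027776, chr3:68690644-68698547, + strand) was the only tested cytokine gene whose genotypes did not overlap. It encodes the p35 chain of IL-12 and IL-35. Its WT libraries held 13.5, 13.3 and 13.5 FPKM and its KO libraries 16.1, 16.0 and 14.9. Every KO library lay above every WT library, WT1 included, and 4.06% of all genes tested showed this order. The means were 13.4 ± 0.118 in WT and 15.7 ± 0.687 in KO (SD, n = 3 each). The difference was 0.21 log2 units (SE 0.067, 95% interval 0.051 to 0.37, limma adjusted p = 0.626), and leaving out WT1 left it at 0.21 (limma adjusted p = 0.104). The exact permutation test gave p = 0.1, the smallest p that 3 against 3 libraries allow.

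The dimer partners were not all at like levels. The ratio of *Ebi3* to *Il12a* was 0.766 in WT1, 1.46 in WT2 and 1.39 in WT3, and 0.756 to 0.81 in the KO libraries. Among the other partner chains, *Il12b* (p40 of IL-12 and IL-23) was at 0.367, 1.19 and 1.23 FPKM in WT and 0.546, 0.122 and 0.422 in KO. Its KO mean of 0.363 was under the level for testing, so it was tested only because of its WT libraries. Its difference of -0.48 log2 units (SE 0.23) did not pass, nor did that of -1.14 with a pseudocount of 0.1 or -1.39 with voom. *Il27* and *Il23a* were not tested, and their sum was at most 0.237 FPKM in any library.

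**Figure D3:**
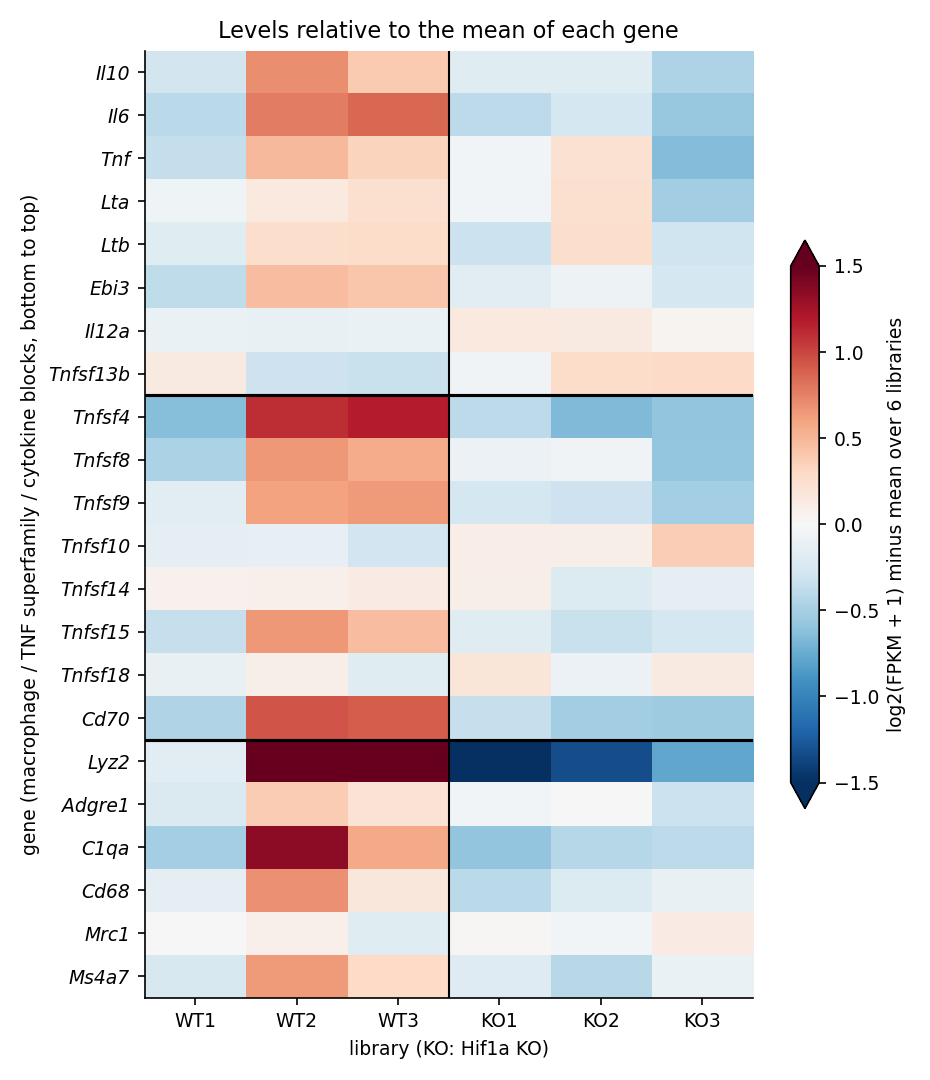
Heat map of log2(FPKM + 1) minus the mean over the 6 libraries (colour, cut at 1.5 in either direction) for the 8 tested cytokine genes (top), 8 other TNF superfamily ligands (middle) and 6 macrophage markers (bottom), with 1 column per library. WT1 lies with the KO libraries for *Il10*, *Il6* and *Ebi3*, *Lyz2* is highest in WT2 and WT3, and *Il12a* separates the genotypes.

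*Tnf*, *Lta* and *Ltb* encode related ligands of the TNF superfamily, and they are direct neighbours on mm10 chromosome 17. *Ltb* (ENSMUSG00000024399, chr17:35194439-35196320, + strand) ends 3060 bases from *Tnf* (ENSMUSG00000024401, chr17:35199381-35202007, - strand), which lies 1157 bases from *Lta* (ENSMUSG00000024402, chr17:35203165-35205351, - strand), with 0 genes in between. *Lta* overlaps *Mir6974* and *Ltb* overlaps *Mir6973a*.

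*Tnf*, the inflammatory ligand of the trio, was at 5.18, 10.1 and 8.94 FPKM in WT and 6.67, 8.24 and 4.04 in KO. *Lta*, whose product is secreted or joins lymphotoxin β at the membrane, was at 9.42, 11.1 and 11.9 in WT and 9.65, 11.9 and 6.63 in KO. *Ltb*, the membrane anchor, was at 136.8, 186.5 and 188.0 in WT and 124.6, 187.7 and 126.4 in KO. The genotypes overlapped in all 3 genes. WT1 lay below KO1 and KO2 for *Tnf* and *Lta*, and KO2 was close to WT2 and WT3 for *Lta* and *Ltb*. The differences were -0.31 (95% interval -1.0 to 0.37) for *Tnf*, -0.21 (-0.67 to 0.25) for *Lta* and -0.23 (-0.69 to 0.23) for *Ltb*, with limma adjusted p of 0.711, 0.711 and 0.69. Without WT1 they were -0.57, -0.3 and -0.38, and 0 of the 3 passed. Without KO3 those of *Tnf* and *Lta* were -0.065 and -0.0044. The ratio of *Ltb* to *Lta* was 14.5 to 16.7 in WT and 12.9 to 19.1 in KO, and that of *Lta* to *Tnf* 1.1 to 1.82 and 1.45 to 1.64.

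*Tnfsf13b* (ENSMUSG00000031497, chr8:10006467-10039072, + strand), the BAFF gene, was at 0.78, 0.313 and 0.29 FPKM in WT and 0.558, 0.97 and 0.972 in KO, from 7 to 31 reads. WT1 lay within the KO range and WT2 and WT3 below it. Its WT mean of 0.461 was under the level for testing, so it was tested only because of the KO libraries. The difference was 0.34 log2 units (SE 0.18, 95% interval -0.089 to 0.76, limma adjusted p = 0.626) and 0.49 without WT1 (limma adjusted p = 0.103). On scales that shrink low genes less it was larger, 0.81 with a pseudocount of 0.1 and 0.91 with voom, and did not pass there either. *Tnfsf13*, the APRIL gene (ENSMUSG00000089669, chr11:69682846-69685784, - strand), had 1, 5 and 1 reads in WT and 1, 0 and 1 in KO, and it overlaps *Tnfsf13os* and *Tnfsfm13*. *Csf2* (ENSMUSG00000018916, chr11:54247271-54249667, - strand) had 0, 5 and 1 reads in WT and 1, 5 and 0 in KO, or 6 in each genotype. Its 0 reads in WT1 and KO3 allow up to 3 reads, and 3 reads of this gene are worth 0.101 to 0.15 FPKM in these libraries. It overlaps *Gm12223*. These levels were too low to show a difference at this depth.

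In FPKM, which allows levels of genes to be compared per length, *Ltb* stood highest with a mean of 158.3 over the 6 libraries, 10.9 times that of *Il12a*. *Il12a*, *Il10* and *Ebi3* followed at 14.5, 14.2 and 14.1, and these 3 did not differ beyond their spread. *Lta* (10.1), *Tnf* (7.2) and *Il6* (2.26) came next, each overlapping its neighbour in range, although the order of *Lta*, *Tnf* and *Il6* was the same in all 6 libraries. *Tnfsf13b* (0.647) lay below the range of *Il6*, and *Csf2* and *Tnfsf13*, which overlapped each other, lay below that of *Tnfsf13b*. The length behind the FPKM was shorter than the exons of GENCODE vM21 for some genes (930 against 6868 bases for *Tnfsf13b* and 1275 against 2428 for *Il6*), so levels between genes depend on the gene model.

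**Figure D4:**
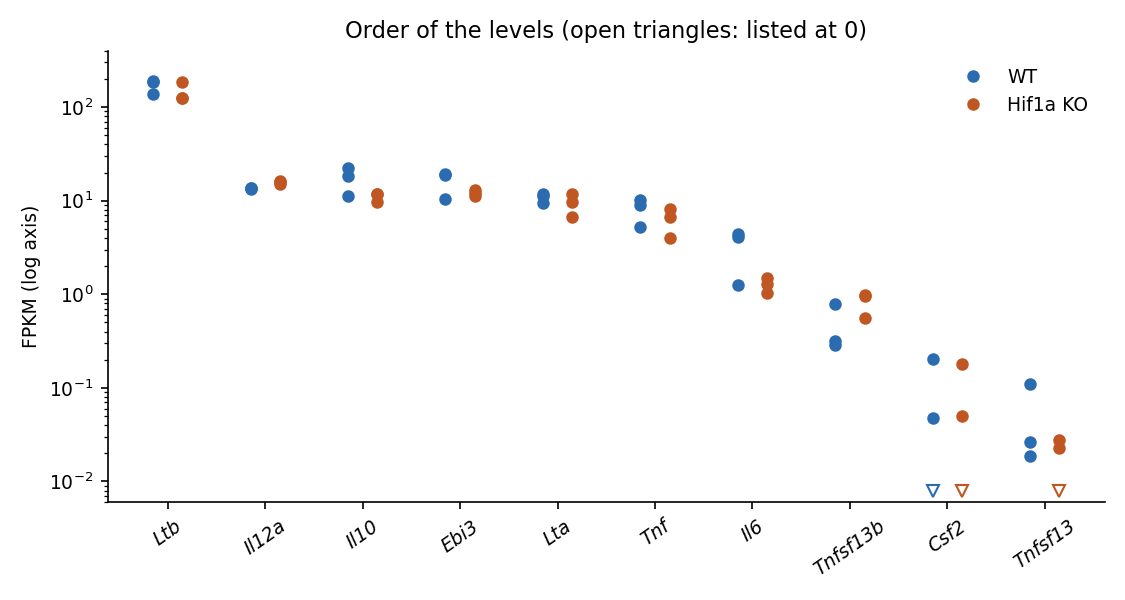
FPKM (log scale) of the 10 cytokine genes in order of their mean over the 6 libraries, with 1 point per library, coloured by genotype, and open triangles for libraries listed at 0. *Ltb* lies above the other genes, and *Il12a*, *Il10* and *Ebi3* overlap.

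The transcripts of many cytokines carry AU-rich stretches in the 3′ UTR, which are known to shorten their life. The nonamer TTATTTATT (T for U) was in the longest annotated 3′ UTR of *Tnf* (5 matches, overlaps counted), *Csf2* (4), *Lta*, *Il12a* and *Tnfsf13b* (1 each) and in that of 7.66% of 21020 genes. *Il10*, *Il6*, *Ltb*, *Ebi3* and *Tnfsf13* had 0 matches of the nonamer. The shorter AU-rich pentamer ATTTA was nevertheless found 10 times in *Il6*, 6 times in *Il10* and 1 time in *Ebi3*. In *Ltb* and *Tnfsf13* it had 0 matches. The 3′ UTRs searched had 1668 bases in *Il6*, 706 in *Il10* and 245 in *Ebi3*, and that of *Il6* exceeds the 1275 bases behind its FPKM. How many of all genes hold the pentamer was not counted. Sites of 30 bases from 4 of these genes are shown with the nonamer in capitals (mm10, on the strand of the gene), since they show how runs of overlapping nonamers in *Tnf* and *Csf2* differ from the single matches in *Lta* and *Il12a*.
*Tnf*, chr17:35199688-35199717 (- strand): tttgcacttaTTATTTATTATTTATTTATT
*Csf2*, chr11:54247328-54247357 (- strand): ttttaaatatTTATTTATTTATTTATTtat
*Lta*, chr17:35203395-35203424 (- strand): aaaagttaagTTATTTATTtatagagaata
*Il12a*, chr3:68698436-68698465 (+ strand): ctatttatatTTATTTATTttctatttatt

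Of the 11 genes listed as regulators of mRNA stability, all 11 were tested and 0 passed (median difference -0.039). *Zfp36*, whose product binds AU-rich elements and promotes decay, was at 69.6, 31.0 and 33.6 FPKM in WT and 67.0, 53.7 and 60.3 in KO. *Arid5a*, known to stabilise *Il6* mRNA, was at 42.2, 77.5 and 81.7 in WT and 45.1, 49.7 and 43.1 in KO. In both genes WT1 lay on the side of the KO libraries. Without WT1, *Zfp36* was higher in KO (0.88, limma adjusted p = 0.00879) and *Arid5a* lower (-0.78, limma adjusted p = 0.00609). This was 1 of the 11 in each direction, beside 3.64% of all genes tested called higher and 5.75% lower. Of 10 regulators of *Il10* transcription, 0 passed with all libraries. Without WT1, *Prdm1*, the plasma cell regulator, was higher in KO (1.22, limma adjusted p = 0.0369) and *Ahr*, the aryl hydrocarbon receptor, lower (-0.33, limma adjusted p = 0.046). This was 1 of the 10 in each direction, beside the same shares of all genes tested.

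Among the receptors of these cytokines, 13 of 17 were tested, 0 passed, and 11 of the 13 had higher and 2 lower means in KO (median 0.12). *Tnfrsf13b*, which encodes the BAFF and APRIL receptor TACI, stood highest at 1019 to 1118 FPKM, with a difference of 0.014 (SE 0.065) that turned to -0.021 under quantile normalization. *Tnfrsf13c*, the BAFF receptor gene, was at 221.5 to 295.2. *Il6ra*, the IL-6 receptor α chain, was at 12.0, 7.97 and 7.38 in WT and 12.6, 11.1 and 13.0 in KO, with a difference of 0.41 (SE 0.17) that did not pass after adjustment. Without WT1, *Il6ra* (0.61, limma adjusted p = 0.0181) and *Csf2rb*, the common β chain (0.4, limma adjusted p = 0.0323), were called higher in KO. They were 2 of the 13, beside 3.64% of all genes tested that were called higher. *Tnfrsf1a* and *Ltbr*, receptors of TNF and lymphotoxin, were too low to be tested, at 0.291 to 1.3 FPKM in WT and at most 0.181 in KO.

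Of 13 other ligands of the TNF superfamily, 8 were tested and 0 passed, with a median of -0.5. *Tnfsf9*, the 4-1BB ligand gene, was at 4.28, 7.93 and 8.2 FPKM in WT and 3.93, 3.76 and 3.13 in KO, a difference of -0.72 (SE 0.22) in which no KO library reached WT. *Tnfsf10*, the TRAIL gene, was at 1.78, 1.8 and 1.49 in WT and 2.26, 2.23 and 2.93 in KO, a difference of 0.36 (SE 0.12) with all KO libraries above WT. The genotypes did not overlap for these 2 of the 8, beside 10.1% of all genes tested. *Tnfsf4*, the OX40 ligand gene, was at 1.76, 8.28 and 8.72 in WT and 1.71 to 2.26 in KO, and *Cd70*, the CD27 ligand gene, at 2.36, 7.87 and 7.64 and 2.19 to 2.61. WT1 lay with KO for both. Without WT1, 5 of the 8 were called lower in KO and 0 higher, beside 5.75% and 3.64% of all genes tested. One of them, *Tnfsf15*, had a KO mean of 0.207 FPKM and was tested only because of its WT libraries (mean 0.797). The differences were -1.7 for *Tnfsf4* (limma adjusted p = 0.00214) and -1.39 for *Cd70* (limma adjusted p = 0.00246). Of 7 genes for release and sorting of such ligands, 7 were tested and 0 passed (median -0.093). Without WT1, 1 of the 7, *Rhbdf1*, was called lower (-0.88, limma adjusted p = 0.0165), beside 5.75% of all genes tested.

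Of 30 other cytokine genes, 9 were tested, 0 passed and 4 were at 0 in all libraries (*Il3*, *Il17a*, *Il22* and *Ifnb1*). The rest of the list stayed below the level for testing. *Tgfb1*, which encodes TGF-β1, stood highest at 203.5 to 235.9 FPKM, with a difference of 0.01 that turned to -0.032 without WT3. *Il16*, a lymphocyte chemoattractant gene, was at 50.7, 42.7 and 44.3 in WT and 52.4, 52.9 and 56.2 in KO, a difference of 0.23 (SE 0.08) with all KO libraries above WT. Of all genes tested, 4.06% showed this order. Without WT1, *Il16* was called higher (0.3, limma adjusted p = 0.0356) and *Csf1* (-0.92, limma adjusted p = 0.015) and *Il15* (-0.62, limma adjusted p = 0.0441) lower. That was 1 of the 9 higher and 2 lower, beside 3.64% and 5.75% of all genes tested.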

How the data were processed

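The data were 6 bulk RNA-seq libraries, 3 WT and 3 *Hif1a* KO. After quality filtering of the reads, the authors used TopHat to align them to mm10 and HTSeq to count them per gene. They deposited the FPKM of each gene. The annotation release, strand option and handling of multiply aligned reads are not given in the sources used here, so overlapping genes and those with near-identical copies are uncertain. Whole reads were recovered from the deposited FPKM (25716 of 25717 genes above 0, to within 0.005 reads), giving 25.0 to 37.2 M reads per library. The limit of 3 reads covers counting error only.

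The 13312 genes that averaged 0.5 FPKM or more were tested with limma 3.58.1 under R 4.3.3 (lmFit, eBayes with trend) on log2(FPKM + 1), two-sided, without covariates, and adjusted by Benjamini-Hochberg over all 13312. Fold changes of low genes are understated on this scale. The cytokine genes and lists were chosen with earlier results of these data known. Named genes were all cytokine genes and, of each gene list, genes with an unadjusted p under 0.05 and up to 4 of the highest mean. Of the marker lists, some defining markers and the genes with an unadjusted p under 0.05 or called without WT1 were given. Sums were given for macrophages, plasma cells, neutrophils and dendritic cells, and for T cells without *Lck*. The basophil and mast cell list and the stromal list are left out. *Zfp36*, *Arid5a*, *Prdm1*, *Ahr*, *Csf2rb*, *Rhbdf1*, *Csf1*, *Il15*, *Tnfsf15*, *Tnfrsf1a*, *Ltbr*, *Cd3g*, *Cd4*, *Cd5*, *Trac*, *Tnfrsf17*, *Mrc1*, *Itgam* and *Xcr1* were named after their values were seen where these rules did not reach them. Gene coordinates came from GENCODE vM21 and promoter windows from RefSeq (GRCm38.p6). No per-sample column was left out (0). No proteins were printed. Some single-gene values are left out of the text. The fit was tested on simulated data for 13312 genes.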

Additional observations from a re-analysis of the deposited data

How the results depend on the processing

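The number of genes called ranged from 0 to 1251 over the left-out libraries (1251 without WT1, 1 without KO1 and 0 without each of the others), that of cytokine genes from 0 to 3 and that of the genes in the other gene lists (markers and the cytokine genes left out) from 0 to 15, with the highest values always without WT1. The other alternatives (pseudocount 0.1, quantile normalization, median-ratio scaling, all genes above 0, only genes averaging 5 FPKM or more, robust eBayes, voom and the replicate block) called 0 genes. The cause of the dependence on WT1 was not tested. All 8 tested cytokine genes kept their direction under each alternative in which they were fitted, *Il6* and *Tnfsf13b* being below the mean FPKM of 5. Low genes had larger differences at other settings: 0.81 with pseudocount 0.1 and 0.91 with voom for *Tnfsf13b*, and -1.14 and -1.39 for *Il12b*. *Lta* came closest to 0 (-0.0044 without KO3) and *Tnf* reached -0.065 there. The difference of *Tnfrsf13b* turned to -0.021 under quantile normalization and ran from -0.019 (without KO3) to 0.047 (without KO1) over the left-out libraries. That of *Tgfb1* ran from -0.032 (without WT3) to 0.078 (without KO1) and was -0.02 without KO2 and -0.028 without KO3. At an unadjusted p under 0.05, 330 genes were higher and 599 lower in KO, and 425 and 476 under median-ratio scaling. Replicate numbers did not pair the libraries (correlations of deviations of -0.0987, 0.139 and -0.276 for equal numbers), and the replicate block called 0 genes, with 694 at an unadjusted p under 0.05 against 929 without it. At 7 to 31 reads, the depth limits *Tnfsf13b*, and the *Csf2* and *Tnfsf13* levels more so.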

Other observations

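The genes whose values followed each tested cytokine gene most closely over the 6 libraries are given as a description, since all values share the same libraries and WT2 and WT3 stand apart in many genes. For *Il10* these were *Dennd5a* and *Tom1l2* (Pearson r = 0.996 of log2(FPKM + 1)) and *Chrnb2* (0.995), and 515 of the genes tested had r above 0.95. For *Il6* they were *Gart*, *Crocc* and *Gfm2* (0.999), among 711 such genes, and for *Ebi3* they were *Rims3* (0.997), *Rnf168* and *Slc25a20* (0.996), among 549. *Il12a* had 19 such genes, fewer than the other 7 cytokine genes, led by *Dpy19l1* (0.986), *Trim59* (0.985) and *Gm5879* (0.981).

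*Trim59* lies on the same chromosome as *Il12a* (mm10 chr3:69035288-69044755), 336740 bases away with 16 annotated genes in between, 3 of them protein coding. Its FPKM was 39.1, 38.2 and 39.7 in WT1, WT2 and WT3 and 46.4, 46.1 and 44.5 in KO, so that all KO libraries lay above WT. Its difference was 0.22 log2 units (SE 0.056, limma adjusted p = 0.626), and 4.06% of all genes tested had all KO libraries above WT. *Trim59* was named because of its likeness to *Il12a* over these same libraries. That its order and difference resemble those of *Il12a* (0.21) follows from this choice.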
